A study of Lobosphaera incisa with 32 samples.

Results

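ATG9 (g6797), ATG2 (g11309), ATG18 (g11431), ATG18-like (g11704) and VMP1 (g8948) are the genes listed as the ATG9 complex, with VMP1, in the autophagy annotation of the green microalga *Lobosphaera incisa*. They were selected by gene ID and not by any measured value, though earlier results of these data were known. They are 5 of the 16722 genes quantified. Their 11 transcripts are among 20212, with 7 belonging to ATG18 and 1 to each of the other genes. The cells were an axenic culture of strain SAG 2468, and RNA was sequenced in 4 conditions with 2 biological replicates of 4 technical replicates each (32 samples). The control (Control) was a nitrogen-replete culture in logarithmic growth, collected at 0 h in normal light (NL), an irradiance of 75 µmol photons per square metre and second. For the other groups, washed cells were moved to medium without nitrogen (N). They were collected after 12 h in high light (HL) of 150 µmol photons (Nst12hHL), and after 72 h under normal light (Nst72hNL) or high light (Nst72hHL). The replete samples are all from 0 h, so N and elapsed time cannot be told apart in any ratio to the control. In both high-light conditions light differed from the control as well.

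Macroautophagy encloses cytoplasm in a growing double membrane, the phagophore, and delivers it to the vacuole. In yeast, ATG9 is the integral membrane protein whose vesicles help to seed the phagophore, ATG2 is a rod-shaped lipid transfer protein that bridges the endoplasmic reticulum (ER) and the phagophore edge, and ATG18 is a WD-repeat protein that binds phosphatidylinositol 3-phosphate and recruits ATG2. VMP1 is an ER protein known from animals, plants and algae, absent from budding yeast, and in animal cells it acts in autophagosome formation and in lipid droplet homeostasis. Nutrient-deprived microalgae are known to form autophagic vacuoles and lipid droplets, and the genes of the membrane supply step were described here for their levels through N deprivation. The roles of the *L. incisa* proteins themselves are assigned by homology.

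The tables hold 1 pooled value per gene and condition, made by the authors from the 8 samples of that condition. The unit used is FPKM, a fragment count scaled by transcript length and by the depth of the library, so levels of different genes may be compared. RSEM, the quantification program, gives a 95% interval for each FPKM that covers counting and read assignment only. The spread between cultures cannot be had from pooled values, so no difference below was tested, and an interval that excludes another value says nothing of the spread between replicates. In bulk RNA, fewer cells expressing a gene and less of its RNA per cell cannot be told apart. Expected fragment counts totalled between 148630272 (Control) and 329774484 (Nst72hNL) per condition, and those of the 5 genes lay between 5039 and 35292.

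A gene was counted as higher or lower when its FPKM ratio reached 1.5 or 1/1.5, among genes with at least 1 FPKM in either condition. Against the control, 31.5% of 14043 genes were higher and 12.6% lower at 12 h, 21.6% higher and 27.1% lower in Nst72hNL (13789 genes), and 20.5% higher and 27.5% lower in Nst72hHL (13827 genes). These shares depended on the scaling. With size factors from the median of ratios, 24.3% were higher and 18.4% lower at 12 h. With TPM, which fixes the sum over transcripts, 32.4% were higher and 20.0% lower in Nst72hNL, and 27.6% and 21.7% in Nst72hHL. The median log2 FPKM ratio of all genes kept was 0.22 at 12 h, -0.04 in Nst72hNL and -0.08 in Nst72hHL, and log2 ratios less this median are given where the shift matters.

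In replete cells, the 5 genes spanned a wide range of levels. ATG18 was the most abundant at 53.6 FPKM (95% interval 52.5 to 54.8), above 88.5% of all genes. ATG18-like, the second gene annotated as ATG18, followed with 33.75 FPKM (33.1 to 34.5). VMP1 had 13.8 FPKM (13.4 to 14.2), ATG9 had 10.9 (10.7 to 11.2) and ATG2 had 7.48 (7.33 to 7.64), so the order was without overlap of intervals. Summed over its 7 transcripts, ATG18 had 7.16 times the FPKM of ATG2, the protein it recruits in yeast. Most of this FPKM came from g11431.t4 (935 bases, 60.9%) and g11431.t5 (981 bases, 17.8%). Both are too short to encode the protein length that the annotation gives for ATG18. Of its longer transcripts, g11431.t6 had 5.33 and g11431.t1 4.41 FPKM, each below the 7.48 of ATG2. ATG2 lay above only 43.2% of all genes and had the lowest level of the 5 in every condition. Together the 5 genes summed to 119.57 FPKM in the control, of which ATG18 and ATG18-like made up 44.8% and 28.2%. Among the 22 ATG-related genes of the annotation, ATG18 ranked 2, ATG18-like 4, VMP1 10, ATG9 15 and ATG2 18 in the control.

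**Figure D1:**
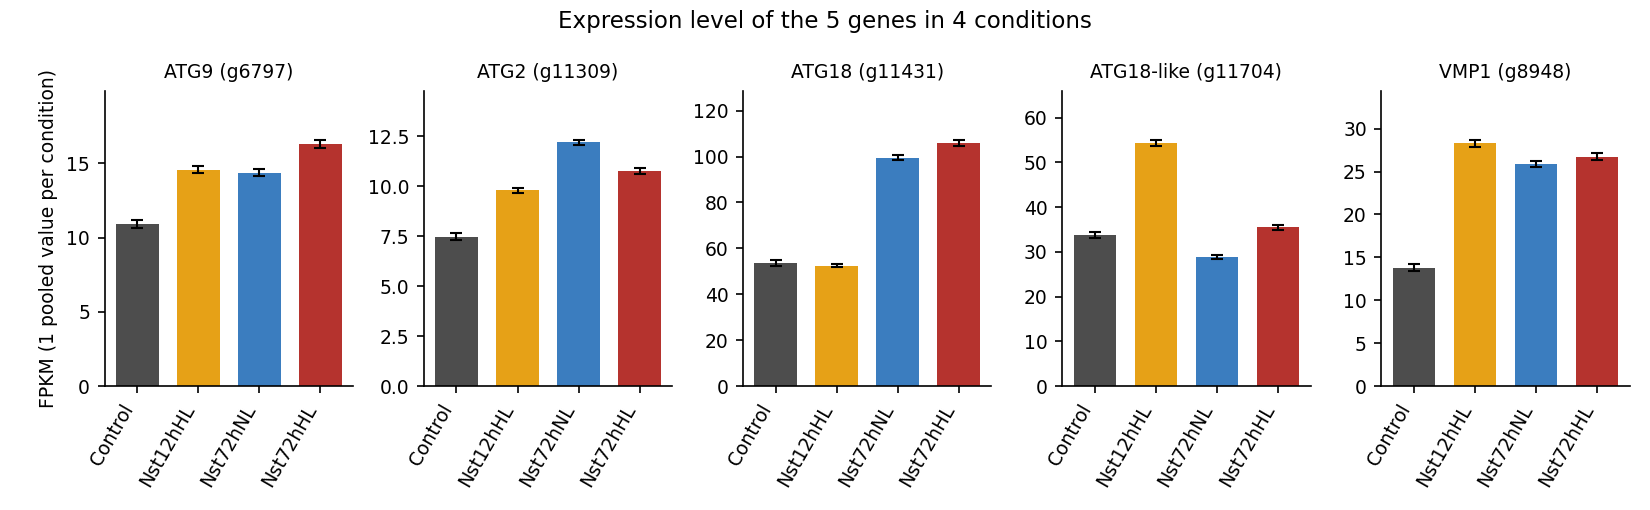
FPKM of ATG9, ATG2, ATG18, ATG18-like and VMP1 (1 panel each, y axis in FPKM starting at 0, scales differ) in the 4 conditions on the x axis. Bars are pooled values and error bars the 95% interval of RSEM. ATG18 stood at 53.6 and 52.5 FPKM in Control and Nst12hHL and at 99.6 and 105.87 in the 72 h conditions, whereas ATG18-like was highest in Nst12hHL with 54.4 FPKM.

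VMP1, the ER membrane protein, was at a higher level in all 3 N-deprived conditions than in the control. Its FPKM was 13.8 in Control, 28.3 in Nst12hHL (27.9 to 28.7), 25.9 in Nst72hNL (25.6 to 26.3) and 26.7 in Nst72hHL (26.3 to 27.2). The control was the low value, and the 3 deprived values were closer to each other than to it, though their intervals did not overlap. The ratios to the control were 2.05 at 12 h (bounds 1.97 to 2.14 from the RSEM intervals), 1.88 in Nst72hNL (1.8 to 1.96) and 1.94 in Nst72hHL (1.85 to 2.02). They exceeded the ratios of 81.1%, 86.7% and 87.3% of the genes kept. Less the median of all genes, the log2 ratios of VMP1 were 0.81, 0.95 and 1.03, so its value at 12 h was the smallest of the 3 on this scale. Among the 22 ATG-related genes VMP1 ranked 10 in the control and 9, 9 and 8 in Nst12hHL, Nst72hNL and Nst72hHL.

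ATG18, in yeast a phosphoinositide-binding WD-repeat protein, was near its control level at 12 h and higher in both 72 h conditions. Its FPKM was 53.6 in Control, 52.5 in Nst12hHL (51.7 to 53.4), 99.6 in Nst72hNL (98.5 to 100.66) and 105.87 in Nst72hHL (104 to 107). In FPKM the values fall into a low group of Control and Nst12hHL, whose intervals overlap, and a high group of the 72 h conditions. The ratio at 12 h was 0.980 (0.944 to 1.02), and it was above 1 with TPM (log2 ratio 0.16). As the median gene was higher at 12 h, the log2 ratio of ATG18 less that median was -0.25. The ratios at 72 h were 1.86 under normal light (1.8 to 1.92) and 1.98 under high light (1.91 to 2.05), above those of 86.4% and 87.8% of the genes kept. From 12 h to 72 h under the same high light the ratio was 2.02 (1.96 to 2.08), above 92.1% of 14035 genes. ATG18 reached a level above 94.2% of all genes in Nst72hNL and 94.4% in Nst72hHL.

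ATG18-like had another course, with its highest value at 12 h. It had 33.75 FPKM in Control, 54.4 in Nst12hHL (53.8 to 55.1), 28.9 in Nst72hNL (28.5 to 29.3) and 35.5 in Nst72hHL (34.9 to 36.1). Only the 12 h value stands apart upwards, and the intervals of all 4 conditions are separate. At 12 h its ratio to the control was 1.61 (1.56 to 1.67), which became a log2 ratio of 0.49 with the median-of-ratios scaling and then no longer reached 1.5. Less the median of all genes its log2 ratio was 0.46. In Nst72hNL the ratio was 0.857 (0.826 to 0.888), but slightly above 1 with TPM (log2 ratio 0.06). In Nst72hHL it was 1.05 (1.01 to 1.09). From 12 h to 72 h under high light ATG18-like was lower, with a ratio of 0.653 (0.634 to 0.672), and this too was short of 1/1.5 with the median-of-ratios scaling (log2 ratio -0.36).

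The balance of both ATG18 genes, in FPKM summed over transcripts, therefore differed between conditions. ATG18 was 1.59 times as abundant as ATG18-like in the control (bounds 1.52 to 1.66), 0.965 times at 12 h (0.939 to 0.993), 3.44 times in Nst72hNL (3.36 to 3.54) and 2.98 times in Nst72hHL (2.89 to 3.07). This ratio is taken within each condition, so a common scaling of all genes does not enter it. It mostly sets the short transcripts g11431.t4 and g11431.t5 (935 and 981 bases) against ATG18-like. Neither is long enough to encode the protein length that the study's annotation gives for ATG18. No longer ATG18 transcript passed 10.5 FPKM in any condition, whereas ATG18-like had at least 28.9. At 12 h ATG18-like was the most abundant of the 5 genes with 34.1% of their summed FPKM, against 32.9% for ATG18. In Nst72hNL the shares were 16.0% and 55.0%, and in Nst72hHL 18.2% and 54.2%. The sum of the 5 genes was 119.57, 159.6, 180.97 and 195.21 FPKM in Control, Nst12hHL, Nst72hNL and Nst72hHL.

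ATG9, the membrane protein of the vesicles that seed the phagophore in yeast, had the flattest profile of the 5. Its FPKM was 10.9 in Control, 14.6 in Nst12hHL (14.3 to 14.8), 14.4 in Nst72hNL (14.2 to 14.6) and 16.3 in Nst72hHL (16.0 to 16.6). The control was lowest, Nst72hHL highest, and the intervals of Nst12hHL and Nst72hNL overlapped. Its ratios to the control were 1.33 (1.28 to 1.39), 1.31 (1.26 to 1.37) and 1.49 (1.43 to 1.56), none of which reached 1.5. With TPM all 3 ratios did reach it (log2 ratios 0.60, 0.67 and 0.78), and with the median-of-ratios scaling that of Nst72hHL did (0.63). The highest level of ATG9 was 1.49 times its lowest, and only 23.8% of the 10339 genes with at least 10 FPKM in some condition and above 0 in all spanned a smaller range.

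ATG2, in yeast a lipid transfer protein, was also lowest in the control. It had 7.48 FPKM in Control, 9.79 in Nst12hHL (9.66 to 9.92), 12.2 in Nst72hNL (12.1 to 12.3) and 10.8 in Nst72hHL (10.6 to 10.9). All 4 intervals are separate, and the highest value was that of normal light at 72 h. The ratios to the control were 1.31 (1.27 to 1.35) at 12 h, 1.63 (1.58 to 1.68) in Nst72hNL and 1.44 (1.39 to 1.49) in Nst72hHL. With TPM the ratio in Nst72hHL passed 1.5 as well (log2 ratio 0.73). ATG2 has the longest transcript of the 5 with 7729 bases, against 3536 for ATG9, 2425 for VMP1 and 1751 for ATG18-like. ATG9 was 1.46 times as abundant as ATG2 in the control, 1.49 times at 12 h and 1.51 times in Nst72hHL, but 1.18 times in Nst72hNL (bounds 1.15 to 1.21).

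Counted together, 2 of the 5 genes were higher at 12 h (VMP1 and ATG18-like), beside 31.5% of all genes. In Nst72hNL 3 were higher (VMP1, ATG18 and ATG2), beside 21.6% of all genes. In Nst72hHL 2 were higher (VMP1 and ATG18), beside 20.5%, with ATG9 and ATG2 at 1.49 and 1.44. None of the 5 was lower in any of these comparisons, where 12.6%, 27.1% and 27.5% of all genes were. The median log2 ratio of the 5 was 0.41, 0.70 and 0.58, beside 0.22, -0.04 and -0.08 for all genes. With only 5 genes and 1 pooled value each, these counts are descriptions. All 3 ratios have the same control libraries as denominator.

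**Figure D2:**
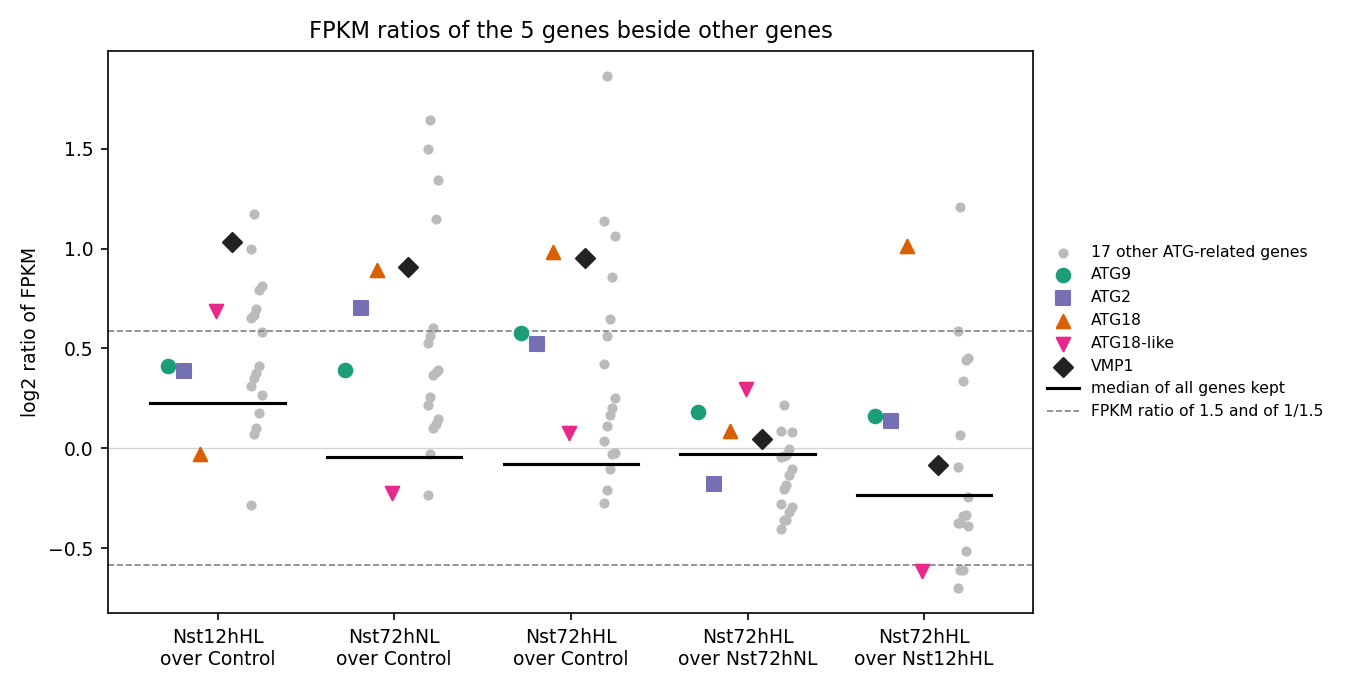
Log2 ratio of FPKM (y axis) in 5 comparisons of conditions (x axis) for the 5 genes (coloured symbols) and the 17 other ATG-related genes (grey points). Black lines are medians of all genes kept and dashed lines mark ratios of 1.5 and 1/1.5. VMP1 lay above 1.5 against the control in all 3 conditions, ATG18 in the 72 h conditions and ATG18-like at 12 h.

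Light was compared at 72 h, where N, time and medium were shared. None of the 5 genes reached a ratio of 1.5 or 1/1.5 between high and normal light, beside 9.28% of 13333 genes higher and 8.78% lower. The widest difference was that of ATG18-like, with 28.9 FPKM under normal and 35.5 under high light, a ratio of 1.23 (1.19 to 1.27). ATG9 had a ratio of 1.13 (1.1 to 1.17) and ATG18 of 1.06 (1.04 to 1.09). ATG2 was lower under high light with 0.883 (0.860 to 0.905). VMP1 had 1.03 (1.00 to 1.06), but was just below 1 with TPM (log2 ratio -0.03). The median log2 ratio was 0.09 for the 5 genes, -0.13 for the 17 other ATG-related genes and -0.03 for all genes. A ratio above 1 was found for 4 of the 5, 3 of the 17 and 46.5% of all genes kept, and no difference between these groups was tested.

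Time under high light was compared between Nst72hHL and Nst12hHL. ATG18 was the gene that was higher and ATG18-like the gene that was lower, beside 14.8% of 14035 genes higher and 33.9% lower. The median-of-ratios scaling gave 22.7% and 25.8%. ATG9 and ATG2 had ratios of 1.12 (1.08 to 1.16) and 1.1 (1.07 to 1.13). VMP1 had 0.945 (0.917 to 0.974), which lay above 1 with the median-of-ratios scaling (log2 ratio 0.18). The median log2 ratio of all genes was -0.23 in this comparison, and less this median the log2 ratios were 1.24 for ATG18, -0.38 for ATG18-like, 0.40 for ATG9, 0.37 for ATG2 and 0.15 for VMP1.

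The transcripts of ATG18 were then examined, because it alone of the 5 genes has more than 1. The most abundant was g11431.t4, of 935 bases, with 32.6 FPKM in Control (31.6 to 33.7), 32.6 in Nst12hHL (31.9 to 33.4), 56.96 in Nst72hNL (56.1 to 57.9) and 62.2 in Nst72hHL (61.0 to 63.3). It made up 60.9%, 62.1%, 57.2% and 58.7% of the FPKM of the gene in these conditions. Next was g11431.t5, of 981 bases, with 9.56 FPKM in Control (8.94 to 10.2), 9.99 in Nst12hHL (9.53 to 10.5), 23.4 in Nst72hNL (22.8 to 24.1) and 27.3 in Nst72hHL (26.5 to 28.1). Its share was 17.8%, 19.0%, 23.5% and 25.8%, so both 72 h conditions had more of it than the control and the 12 h sample. The ratio of g11431.t5 to the control was 2.45 (2.24 to 2.69) in Nst72hNL and 2.86 (2.60 to 3.15) in Nst72hHL, against 1.75 (1.66 to 1.83) and 1.91 (1.81 to 2.00) for g11431.t4. Of the gain of the gene in FPKM over the control, g11431.t4 gave 52.9% and g11431.t5 30.2% in Nst72hNL, and 56.5% and 33.9% in Nst72hHL.

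The longer transcripts of ATG18 were minor in FPKM. Only they are long enough for the protein length in the study's annotation, as g11431.t4 and g11431.t5 are too short. In expected counts, which are not divided by length, g11431.t6 and g11431.t1 had 1314 and 1172 in Control, beside 1371 for g11431.t5 and 4449 for g11431.t4. The FPKM of g11431.t6 (1653 bases) was 5.33, 4.54, 10.5 and 8.34 in Control, Nst12hHL, Nst72hNL and Nst72hHL, and that of g11431.t1 (1780 bases) was 4.41, 4.41, 6.87 and 6.92. The former was thus highest under normal light at 72 h, and the latter was alike in both lights (ratio 1.01, bounds 0.908 to 1.11). The low transcript g11431.t2 (1555 bases) had 1.66, 0.98, 1.83 and 0.50 FPKM, and g11431.t3 (1530 bases) was listed at 0 in all but Nst72hHL, where it had 0.63 (0.33 to 0.93). For g11431.t7 (1328 bases) the FPKM was listed as 0 in all 4 conditions, with upper bounds of the interval between 0.019 and 0.050 FPKM. The transcripts share sequence to an extent the tables do not give, and the reads were assigned among them by RSEM, so low transcripts rest on that assignment.

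The shift in the makeup of ATG18 was measured as a distance, the summed absolute difference of transcript shares divided by 2, in percentage points. It was 2.54 points between 12 h and Control, 6.26 between Nst72hNL and Control, 8.54 between Nst72hHL and Control, 4.37 between the lights at 72 h and 7.36 between both times under high light. It reached 10 points in none of these 5 comparisons. Of the genes with several transcripts and at least 1 FPKM in both conditions, 16.0%, 27.7%, 23.5%, 13.0% and 22.0% reached it, in the same order. A distance larger than that of ATG18 was found for 55.0%, 43.6%, 28.5%, 38.7% and 31.3% of these genes. ATG18 is among only 5 genes with 7 transcripts, and genes with more transcripts can move in more ways. Among genes with 4 or more transcripts, the median distance was 8.82 points in Nst72hNL and 7.89 in Nst72hHL against the control.

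**Figure D3:**
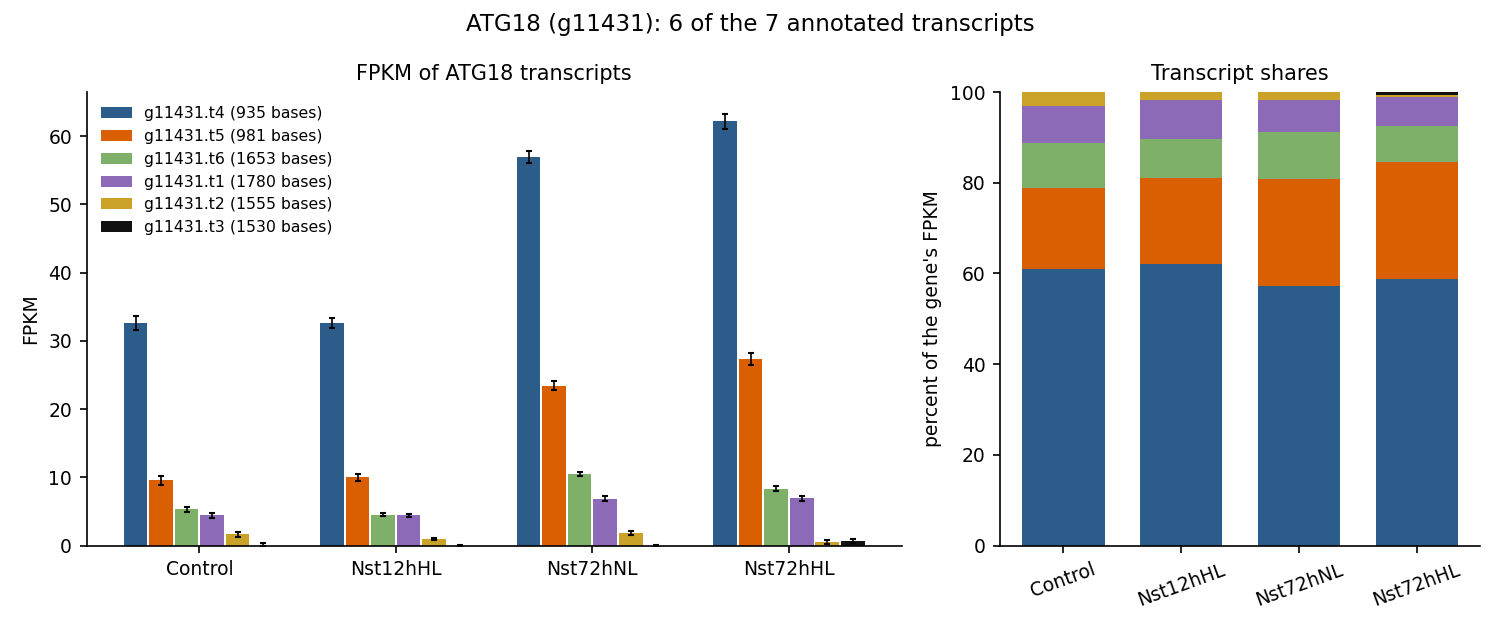
Left, FPKM of 6 ATG18 transcripts in the 4 conditions, with bars for pooled values and error bars for the 95% interval of RSEM. Right, the share of each transcript in the FPKM of the gene, in percent and in the same colours, stacked from g11431.t4 at the bottom. The share of g11431.t5 was 17.8% in Control and 25.8% in Nst72hHL, and g11431.t7 (not drawn) was listed at 0.

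The profiles over the 4 conditions were compared as log2 FPKM less the mean of each gene, by the Euclidean distance between genes. With 4 conditions and 10339 genes many profiles are alike, so the distances are descriptions. Within the 5 genes, ATG9 and ATG2 were nearest to each other (0.29) and ATG18 and ATG18-like farthest apart (1.47). Of the ATG-related genes with at least 10 FPKM in some condition, the nearest to VMP1 was ATG1 (g10441), the kinase that starts autophagy, at 0.37. ATG1 had 6.96, 13.9, 17.7 and 14.55 FPKM in Control, Nst12hHL, Nst72hNL and Nst72hHL. The nearest to ATG18 was ATG14 (g5843), a subunit of the PI3-kinase complex whose lipid product ATG18 binds in yeast, at 0.35, with 10.95, 13.2, 24.3 and 19.8 FPKM. The nearest to ATG18-like was ATG3 (g4126), the enzyme that joins ATG8 to its lipid, at 0.25, with 33.2, 58.3, 36.1 and 38.2 FPKM. ATG12 (g3729), a ubiquitin-like partner of ATG5, was nearest to both ATG9 and ATG2 at 0.20, with 23.4, 29.0, 34.5 and 36.6 FPKM. Between 1.93% and 3.03% of the other genes were nearer to the member than these. Among IDs that the tables do not pair with a product name, g1138 was closest to VMP1 (0.07) with 8.11, 16.7, 16.2 and 16.3 FPKM, and g38 to ATG18 (0.08) with 20.4, 20.0, 36.0 and 41.4 FPKM.

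**Figure D4:**
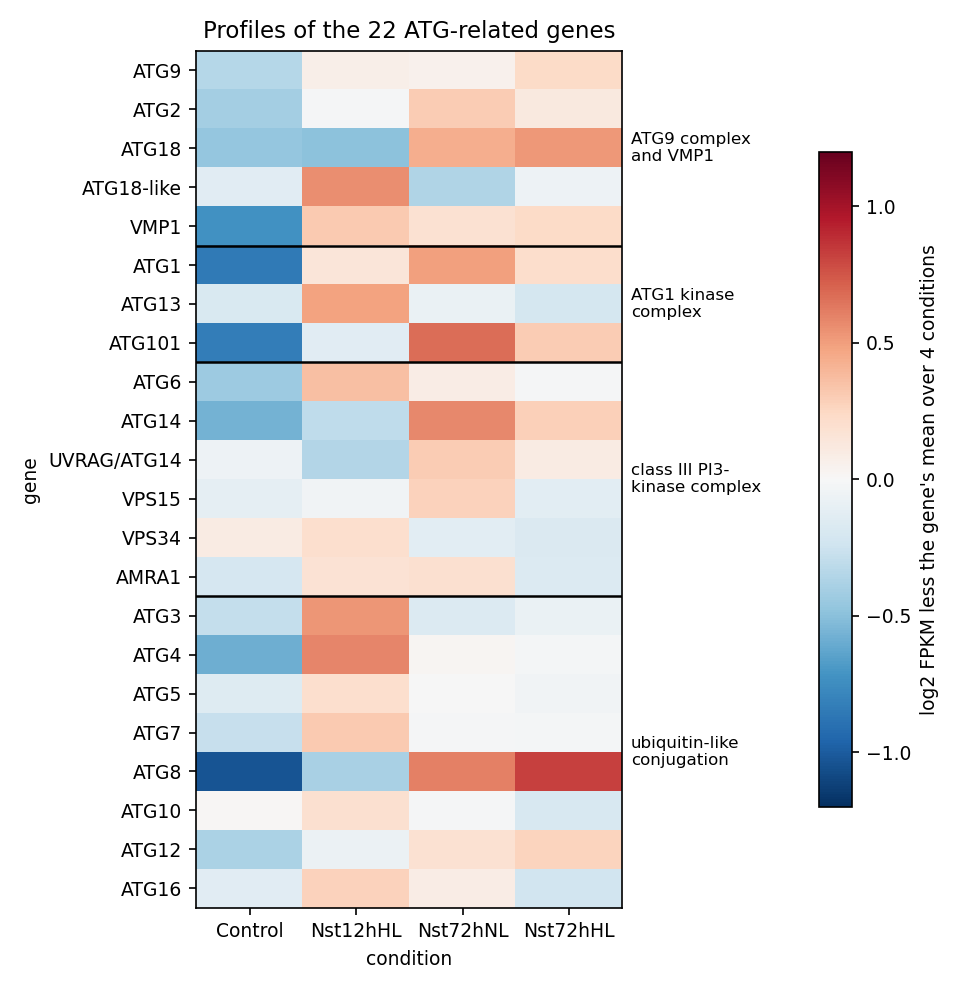
Log2 FPKM less the mean of each gene over the 4 conditions (colour, blue for low and red for high) for the 22 ATG-related genes (rows, black lines between complexes) in 4 conditions (columns). ATG18 was highest in Nst72hHL and lowest in Nst12hHL, and ATG18-like highest in Nst12hHL and lowest in Nst72hNL, whereas with TPM both genes were lowest in Control.

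How common these courses were was counted after the values had been seen, among the same 10339 genes. A ratio of 1.5 or more in all 3 conditions, as for VMP1, was found for 884 genes (8.55%), including ATG1, ATG101 and ATG8 of the annotation. A level from 20% below to 25% above the control at 12 h with a ratio of 1.5 or more in both 72 h conditions, as for ATG18, was found for 511 genes (4.94%), including ATG14. The course of ATG18-like, a ratio of 1.5 or more at 12 h and a level within the same limits of the control in both 72 h conditions, was found for 501 genes (4.85%), including ATG3.

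The other 17 ATG-related genes serve as the surrounding pathway. At 12 h, 7 of them were higher and none lower, beside 31.5% and 12.6% of all genes, with a median log2 ratio of 0.41, equal to that of the 5 genes. In Nst72hNL 5 of the 17 were higher and none lower, beside 21.6% and 27.1% of all genes, with a median of 0.38 against 0.70 for the 5. In Nst72hHL 5 were higher and none lower, beside 20.5% and 27.5%, with a median of 0.20 against 0.58. The highest ratio of the 17 was that of ATG4 at 12 h (2.25), the protease that processes ATG8, and of ATG8, the protein joined to the phagophore membrane, in Nst72hNL (3.12) and Nst72hHL (3.64). The lowest was that of the UVRAG/ATG14 gene at 12 h (0.820) and of VPS34, the PI3-kinase itself, at 72 h (0.851 in Nst72hNL, though above 1 with TPM, and 0.829 in Nst72hHL). Of the ATG1 kinase complex 3 of 3 genes were higher at 12 h, of the class III PI3-kinase genes 1 of 6, and of the conjugation system 3 of 8, where 31.5% of all genes were. In Nst72hNL these counts were 2, 1 and 2 (21.6% of all genes), and in Nst72hHL again 2, 1 and 2 (20.5%). No difference between the 5 genes and the other lists was tested.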

How the data were processed

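Total RNA of 32 samples was sequenced by Illumina HiSeq, with single-end and paired-end reads per the labels. RSEM 1.2.9, Bowtie 1.0.0, cutadapt 1.1, CASAVA 1.8 and DESeq are listed in the submitters' processing notes. Genome build and annotation: not given in the sources used here. Per condition, 1 pooled value was deposited by the authors for expected counts (not normalized), TPM, FPKM with a 95% interval and the percent of each gene's TPM per transcript, the last not used for the shares given. In 0 rows did the effective length differ from the length. The deposited tables of DESeq comparisons (mean normalized counts, fold changes, p-values) were not used.

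Ratios of FPKM were taken without a pseudocount, among genes with at least 1 FPKM in either condition. Bounds of a ratio are the lower over the upper limit and the reverse. No test was made, because the quantification tables used hold 1 pooled value per condition. Transcript shares are shares of FPKM. Gene names come from the study's annotation. For likeness, the nearest ATG-related gene and the 2 nearest others were found for each member, and of the latter 2 IDs are printed because they carry no product name. The members, lists and rules were chosen with earlier results of these data known. Alternatives were TPM, expected counts scaled to the library total, median-of-ratios scaling, a pseudocount of 1, other minimums and thresholds, the most abundant transcript and, added after seeing the data, posterior mean FPKM. The median-of-ratios scaling was tested on simulated counts with known ratios, and the share distance on a small made-up case. The other steps were not tested in this way. Python 3.11.15, numpy 2.4.6, pandas 2.3.3 and matplotlib 3.10.9 were used.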

Additional observations from a re-analysis of the deposited data

How the results depend on the processing

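No paired analysis was possible because each condition has 1 pooled value in the tables used, and for the same reason no replicate could be left out. Depth did not limit the 5 genes, each with at least 5039 expected fragments per condition, and the missing spread between cultures did. All 25 log2 ratios of the 5 genes kept their sign with expected counts scaled to the library total, a pseudocount of 1, the most abundant transcript and posterior mean FPKM, 24 with median-of-ratios scaling and 22 with TPM. Much of this was fixed in advance. A pseudocount cannot change a sign, and for the 4 genes with 1 transcript the most abundant transcript repeats the gene. Expected counts scaled to the library total nearly repeat the FPKM ratios. Taken less the median of all genes, each ratio moved by at most 0.052 among the 4 scalings, the most for ATG18. A factor common to all genes cancels there, so this agreement was nearly fixed in advance and is no check of the ratios.

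With TPM the median log2 ratio of the 5 genes was 0.60 at 12 h (0.41 with FPKM) and 0.98 in Nst72hNL (0.70). It was 0.78 in Nst72hHL (0.58) and 0.02 between the lights (0.09). By TPM 3 genes were higher at 12 h (2 with FPKM), beside 40.5% of all genes. In Nst72hNL 4 were higher (3 with FPKM), beside 32.4%, and in Nst72hHL 4 (2 with FPKM), beside 27.6%. ATG9 was the gene gained in each condition, with ATG2 in Nst72hHL. The median-of-ratios scaling gave medians of 0.21 at 12 h, 0.77 in Nst72hNL, 0.05 between the lights and 0.39 between the times. With it 1 gene was higher at 12 h, beside 24.3% of all genes, and 3 in Nst72hHL, beside 22.4%. Between the times 0 were lower, beside 25.8%. The light median was 0.05 with expected counts scaled to the library total and 0.13 with the most abundant transcript. It was 0.64 in Nst72hNL with the pseudocount, and 0.55 at 12 h with a minimum of 10 FPKM, which removes ATG2 there. At a ratio of 2, 1 gene was higher at 12 h, 0 at 72 h in either light and 0 lower between the times. With the ratio set 25% above 1, 4 were higher at 12 h (44.4% of all genes) and 4 in Nst72hHL (29.7%). At a ratio of 2, 19.5%, 11.7% and 11.9% of all genes were higher at 12 h, in Nst72hNL and in Nst72hHL. Between the times 22.6% of all genes were lower at that ratio. ATG18 passed a share distance of 5 points in 3 of the 5 comparisons (both 72 h conditions against Control, and between the times). Of the genes with several transcripts, 50.5% passed 5 points in Nst72hNL, 45.1% in Nst72hHL and 43.1% between the times. In Nst72hNL 6.83% of them passed 20 points. With shares of expected counts the distance of ATG18 between the lights was 6.01 points (4.37 with FPKM).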
